A study of Homo sapiens with 6 samples.

Results

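The homologous recombination and Fanconi anemia genes comprise 38 genes, fixed as a list of gene symbols and taken by exact name from the 60835 distinct names of the deposited count table. Each symbol was found once, and all 38 passed the filter on low counts, so none is left out of the test across 15346 genes. Their counts came from total RNA of HEY, a long-established line grown from a human ovarian tumour, in 3 libraries treated with siRNA to CCNL2 (siCCNL2) and 3 with control siRNA (siNC). The treatment text, identical for the 6 libraries, gives 48 h. The labels give neither the sequences nor the number of siRNAs, and effects of CCNL2 loss and of an siRNA on other transcripts cannot be told apart. Cyclin L2, the product of CCNL2, works with CDK11 kinases in splicing, and the series title sets the experiment in a study of cisplatin resistance.

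Homologous recombination repairs a broken chromosome by copying the intact sister chromatid, and it works in the S and G2 phases of the cell cycle. The broken ends are trimmed to single strands, BRCA2 and its partners prepare these for pairing, and the strand then invades the sister. The Fanconi anemia pathway recognises crosslinks between the strands of DNA, such as those made by cisplatin, marks the FANCD2-FANCI pair with ubiquitin and passes the incised lesion to homologous recombination. Loss of some of these genes is well known in ovarian cancer, where it sensitises cells to platinum drugs and to PARP inhibitors.

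Of the 38 genes, 6 were called higher in siCCNL2 than in siNC, namely XRCC2, RAD51D, FANCE, RAD54L, MRE11 and FANCG. Only ATR was called lower, and 31 were not called. A call here means an adjusted p under 0.05 by edgeR's quasi-likelihood test over all tested genes. The calls cover 18.4% of the list against 33.6% of all tested genes, with 15.8% against 17.2% for higher genes and 2.63% against 16.5% for lower genes. No member reached a 1.5-fold difference together with a call, a size that 7.12% of tested genes passed.

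Total counts ran from 13596286 to 18095529 in siCCNL2 and from 15771604 to 16934044 in siNC, and members held 76 to 2683 reads in any library. CCNL2 itself stood at 203, 182 and 186 CPM in the siCCNL2 libraries, against 261, 267 and 246 CPM in the siNC libraries, where CPM are counts per 1000000 reads, scaled by TMM factors. All siCCNL2 values lay below all siNC values, and the target fell by 26.3% (log2 fold change -0.44, adjusted p = 2.15e-08), so the comparison is one of a partial knockdown. Libraries correlated at 0.994 to 0.995 within groups and at 0.987 to 0.989 between groups in log2 CPM. The labels do not state that replicates were cultured separately, so all p-values reflect library-to-library spread that may be technical. Of 8 epithelial and ovarian markers, KRT7, KRT8, KRT18 and PAX8 were well detected and MUC16 was near 0. EPCAM averaged 2.72 CPM in siCCNL2 and 1.84 CPM in siNC, WT1 6.33 and 8.64 CPM, and MSLN 1.56 and 1.88 CPM. Of the 7 tested, 5 were called lower, against 16.5% of all tested genes. Of 6 markers of other cell types, PTPRC, CD3E, CD68 and ALB averaged under 1 CPM in both groups, and CDH5 and PECAM1 were called lower. The summed level for the list was 44.8 to 54.3 CPM in siCCNL2 and 114 to 120 CPM in siNC. Nearly all of it was CDH5 (mean 47.2 CPM in siCCNL2 and 114 CPM in siNC), while PECAM1 averaged 0.9 and 2.4 CPM. The part of these markers in the results was not tested. In such bulk libraries, fewer cells in a phase of the cycle and less RNA per cell cannot be told apart.

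The promoter windows of the member that rose most, of the one that fell and of the second largest rise are shown because these 3 genes carry the largest differences in the list. They are RefSeq windows on GRCh38.p14 from 250 bases before to 50 bases after the start, read on the strand of the gene, and capitals mark an E2F motif or a GC box. XRCC2 lies at chr7:152676092-152676391 (minus strand), ATR at chr3:142578684-142578983 (minus strand) and the first RAD51D window at chr17:35119709-35120008 (minus strand).
XRCC2: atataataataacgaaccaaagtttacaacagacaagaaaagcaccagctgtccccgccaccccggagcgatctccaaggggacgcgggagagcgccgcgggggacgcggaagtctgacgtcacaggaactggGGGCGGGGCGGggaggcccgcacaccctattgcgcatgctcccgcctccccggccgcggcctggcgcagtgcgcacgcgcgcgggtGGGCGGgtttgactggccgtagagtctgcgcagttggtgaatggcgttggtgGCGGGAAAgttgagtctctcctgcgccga
ATR: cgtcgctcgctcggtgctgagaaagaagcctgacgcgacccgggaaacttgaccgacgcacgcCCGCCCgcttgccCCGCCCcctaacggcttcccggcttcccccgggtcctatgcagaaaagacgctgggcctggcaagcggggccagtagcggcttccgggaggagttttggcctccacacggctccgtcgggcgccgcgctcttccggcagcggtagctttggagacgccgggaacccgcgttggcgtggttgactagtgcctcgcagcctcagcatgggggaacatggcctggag
RAD51D: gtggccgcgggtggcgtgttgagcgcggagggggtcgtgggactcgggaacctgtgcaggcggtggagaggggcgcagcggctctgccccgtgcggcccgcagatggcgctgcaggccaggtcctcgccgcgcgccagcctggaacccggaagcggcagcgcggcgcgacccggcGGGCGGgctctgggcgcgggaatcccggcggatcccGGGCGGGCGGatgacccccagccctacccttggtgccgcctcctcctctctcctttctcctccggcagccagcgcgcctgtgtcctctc
The window of XRCC2 holds an E2F motif that begins 21 bases after the start, as the reverse complement of TTTCCCGC, and 3 GC boxes, 2 of which share a base. The windows of ATR and RAD51D hold GC boxes (GGGCGG on either strand) and no E2F motif. A match describes letters in a window and shows no binding.

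**Figure D1:**
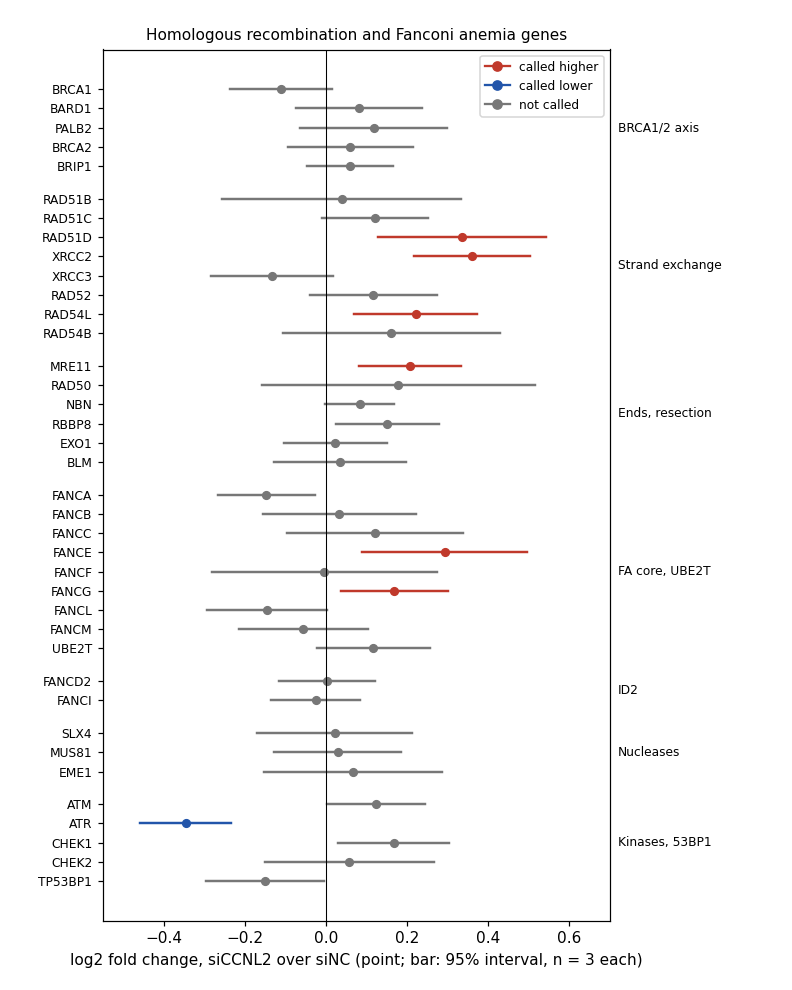
Log2 fold change of each of the 38 members, siCCNL2 over siNC, with its 95% interval (horizontal axis) by role (vertical axis); colours give the call. XRCC2 (0.36) and RAD51D (0.34) lie farthest to the right, ATR (-0.35) farthest to the left, and most intervals cross 0.

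The strand exchange genes held 3 calls among 8 genes, all higher, which is 37.5% against the 33.6% of all tested genes. XRCC2, which joins RAD51B, RAD51C and RAD51D in the BCDX2 complex, had 35.0, 33.1 and 33.8 CPM in siCCNL2, against 25.6, 27.7 and 26.2 CPM in siNC. The groups did not overlap, and XRCC2 was 28.3% higher (log2 fold change 0.36, 95% interval 0.22 to 0.50, adjusted p = 2.33e-04). It kept its call in all 16 refits that changed the scaling, filter, tool, unit, block or set of libraries. The gene (ENSG00000196584) spans chromosome 7 from 152644776 to 152676193 on the minus strand of GRCh38 and shares no exon base with another gene of GENCODE release 29.

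RAD51D, the subunit that binds XRCC2 directly, had 15.4, 16.0 and 14.6 CPM in siCCNL2, against 11.69, 12.7 and 11.99 CPM in siNC. Each siCCNL2 library was above every siNC library, and RAD51D was 26.2% higher (log2 fold change 0.34, 95% interval 0.13 to 0.54, adjusted p = 0.0111). The gene (ENSG00000185379, chromosome 17, 35092221 to 35121522, minus strand) was called in every fit that left out 1 library. On the length-scaled score the call was lost with limma (adjusted p = 0.112 with 1 added before the logarithm and 0.125 with 0.1). RAD51D shares 8.01% of its exon bases with AC004223.3, a model on the same strand that held 0 reads.

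The other members of these complexes differed less. RAD51C, which takes part both in BCDX2 and, with XRCC3, in the CX3 complex, had 59.85, 51.6 and 50.45 CPM in siCCNL2, against 50.26, 49.03 and 50.01 CPM in siNC. All siCCNL2 libraries were above the siNC libraries, narrowly for replicate 3, and the difference was not called (log2 fold change 0.12, adjusted p = 0.152). Without siCCNL2 replicate 1, the highest library, the log2 fold change of RAD51C was 0.038 (adjusted p = 0.703). RAD51B averaged 7.84 ± 1.43 CPM in siCCNL2 and 7.66 ± 0.166 CPM in siNC (SD, n = 3 each), with a log2 fold change of 0.039 and a wide 95% interval of -0.26 to 0.33 at few reads. XRCC3, the partner of RAD51C, pointed the other way with a log2 fold change of -0.13 (adjusted p = 0.17). Its counts are uncertain, because 76.7% of its exon bases lie opposite exons of KLC1 and the use of strand in counting is not given in the sources used here.

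RAD54L, a motor protein that helps strands invade and then remodels the joint, had 34.0, 35.7 and 34.6 CPM in siCCNL2, against 28.8, 33.0 and 27.6 CPM in siNC. The groups did not overlap, although siNC replicate 2 came close, and RAD54L was 16.5% higher (log2 fold change 0.22, 95% interval 0.069 to 0.37, adjusted p = 0.0221). The call was lost without siCCNL2 replicate 2 (adjusted p = 0.0622) or 3 (0.0586) and without siNC replicate 1 (0.0846) or 3 (0.108). It was also lost by the DESeq2 Wald test (adjusted p = 0.053) and with limma on the length-scaled score (0.0663 with 1 added and 0.0652 with 0.1). RAD54L spans chromosome 1 from 46246461 to 46278480 (plus strand). Its counts are uncertain, because 25.1% of its exon bases lie opposite LRRC41, which averaged 124 CPM and was not called. Its relative RAD54B (log2 fold change 0.16, adjusted p = 0.372) shares 59.1% of its exon bases with FSBP on the same strand and is uncertain. For RAD52, which anneals single strands, the log2 fold change was 0.12 (adjusted p = 0.252), with all siCCNL2 libraries above all siNC libraries. RAD52 shares 5.56% of its exon bases on the same strand with AC004803.1, so its counts are uncertain. AC004803.1 was itself called higher (log2 fold change 0.88, adjusted p = 9.49e-04).

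**Figure D2:**
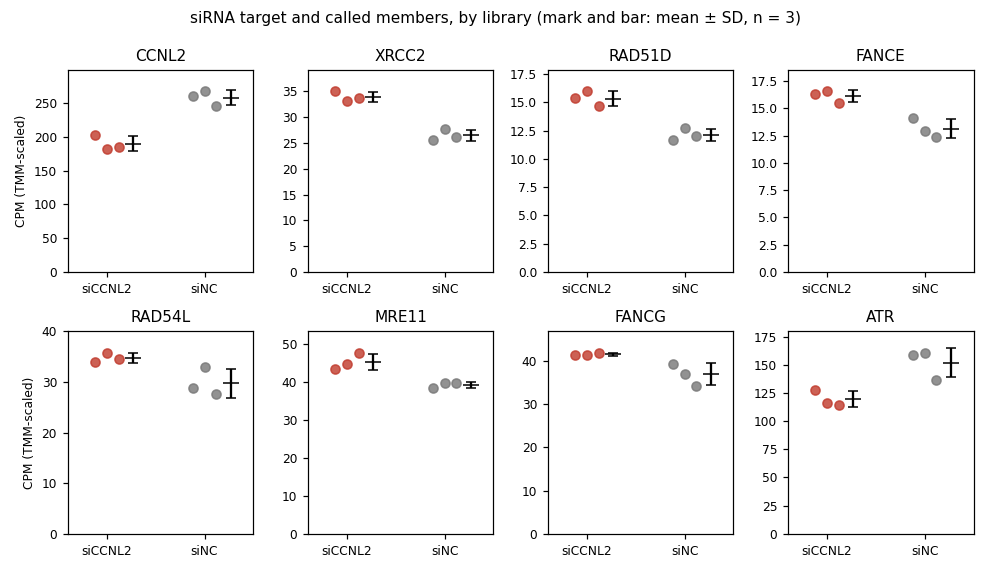
TMM-scaled CPM (vertical axis, from 0) of CCNL2 and the 7 called members in each library of siCCNL2 and siNC; the mark and bar give mean ± SD (n = 3). XRCC2 runs from 33.1 to 35.0 CPM in siCCNL2 and from 25.6 to 27.7 CPM in siNC, and in every panel the groups do not overlap.

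BRCA1, BARD1, PALB2, BRCA2 and BRIP1, which act at the resected end before strand exchange or unwind DNA with BRCA1, held no call. The share called among all tested genes was 33.6%. BRCA1, a ubiquitin ligase with BARD1, had 56.3, 54.0 and 56.1 CPM in siCCNL2, against 60.6, 64.9 and 54.3 CPM in siNC. The groups overlapped through siNC replicate 3, and the log2 fold change was -0.11 (95% interval -0.24 to 0.015, adjusted p = 0.175). Without siNC replicate 3 the value was -0.17 and BRCA1 was called lower (adjusted p = 0.0313), whereas without siNC replicate 2 it was -0.051 (adjusted p = 0.623).

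BRCA2, which acts before strand invasion, had 73.3, 61.8 and 66.0 CPM in siCCNL2, against 68.7, 69.9 and 54.7 CPM in siNC. Both groups spanned much the same range, and the log2 fold change was 0.060 with a 95% interval of -0.093 to 0.21. The log2 fold change of PALB2, the bridge between BRCA1 and BRCA2, was 0.12 (adjusted p = 0.331), that of BARD1 0.081 (0.445) and that of the helicase gene BRIP1 0.059 (0.409). For PALB2 and BRIP1 all siCCNL2 libraries lay above all siNC libraries, by small margins. The intervals of all 5 genes stayed within 1.25-fold in either direction.

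Among the 6 genes that sense and trim broken ends, only MRE11 was called, and higher, which is 16.7% against 33.6% of all tested genes. MRE11, the nuclease of the MRE11-RAD50-NBN complex, had 43.5, 44.8 and 47.7 CPM in siCCNL2, against 38.3, 39.8 and 39.7 CPM in siNC. The groups did not overlap, and MRE11 was 15.4% higher (log2 fold change 0.21, 95% interval 0.081 to 0.33, adjusted p = 0.0102). Without siCCNL2 replicate 3, its highest library, the log2 fold change was 0.17 and the call was lost (adjusted p = 0.0723). It was also lost with limma on the length-scaled score (adjusted p = 0.0738 with 1 added and 0.0689 with 0.1). MRE11 lies on chromosome 11 at 94415570 to 94493885 (minus strand, ENSG00000020922). Opposite 2.93% of its exon bases lies ANKRD49, which averaged 7.93 CPM and was not called.

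NBN, which brings the complex to breaks and activates ATM, had 138.5, 138.2 and 137.4 CPM in siCCNL2, against 133, 129 and 129 CPM in siNC. The groups did not overlap, yet the difference of 5.94% was not called (log2 fold change 0.083, adjusted p = 0.125). RAD50, the ATPase that tethers the ends, averaged 5.96 ± 0.206 CPM in siCCNL2 and 5.28 ± 0.986 CPM in siNC (SD, n = 3 each). It was the lowest member on the length-scaled score, and 79.7% of its exon bases are shared on the same strand with AC116366.3, a model that held 0 reads, so its counts are uncertain. RBBP8, which encodes the resection factor CtIP, stood at a log2 fold change of 0.15 (adjusted p = 0.0603) and was called higher without siCCNL2 replicate 2 (log2 fold change 0.20, adjusted p = 0.0242) or siNC replicate 1 (0.20, 0.0304), but not without any other library (0.12 to 0.14). The exonuclease gene EXO1 and the helicase gene BLM, which act in long-range resection, had log2 fold changes of 0.023 (95% interval -0.10 to 0.15) and 0.034 (-0.13 to 0.20).

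The Fanconi anemia core complex is the ubiquitin ligase of the pathway, with FANCL as its catalytic subunit and UBE2T as the conjugating enzyme. Of these 9 genes FANCE and FANCG were called higher and none lower, which is 22.2% called against 33.6% of all tested genes. FANCE, which connects the core to FANCD2, had 16.3, 16.6 and 15.5 CPM in siCCNL2, against 14.12, 12.95 and 12.36 CPM in siNC. The groups did not overlap, and FANCE was 22.5% higher (log2 fold change 0.29, 95% interval 0.090 to 0.50, adjusted p = 0.0235). It lost its call without siCCNL2 replicate 1 (adjusted p = 0.0545) or 2 (0.0571) and without siNC replicate 2 (0.0634) or 3 (0.0856), at log2 fold changes of 0.25 to 0.29. The call was also lost by the DESeq2 Wald test (adjusted p = 0.0628). FANCE spans chromosome 6 from 35452338 to 35467104 (plus strand) and shares no exon base with another gene.

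FANCG, which supports the FANCA subunit, had 41.4, 41.3 and 41.8 CPM in siCCNL2, against 39.3, 37.1 and 34.3 CPM in siNC. The siCCNL2 libraries were nearly equal and all above siNC, and FANCG was 12.4% higher (log2 fold change 0.17, 95% interval 0.036 to 0.30, adjusted p = 0.0457). This was the weakest of the calls, kept in 4 of 18 alternatives. It was lost without siCCNL2 replicate 1 (adjusted p = 0.0758), 2 (0.0728) or 3 (0.116) and without siNC replicate 2 (0.0928) or 3 (0.204). FANCG spans chromosome 9 from 35073835 to 35080004 (minus strand).

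FANCA, the partner of FANCG, stood on the other side of 0. It averaged 45.9 ± 1.82 CPM in siCCNL2 and 50.8 ± 1.55 CPM in siNC (SD, n = 3 each), all siCCNL2 libraries were lower, and the log2 fold change was -0.15 (adjusted p = 0.0539). It was called lower with upper-quartile factors or no composition factor, without siCCNL2 replicate 2 (adjusted p = 0.0412) and, barely, without siNC replicate 3 (0.04999). Opposite 23.6% of its exon bases lies ZNF276, itself called lower (log2 fold change -0.46, adjusted p = 0.00119), so the counts of FANCA are uncertain.

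UBE2T had 45.2, 38.1 and 41.7 CPM in siCCNL2, against 39.98, 38.85 and 36.9 CPM in siNC. Replicate 2 of siCCNL2 lay among the siNC values, and the log2 fold change of 0.12 was not called (adjusted p = 0.198). It was 0.054 without siCCNL2 replicate 1 and 0.18 without siCCNL2 replicate 2, neither called. FANCL stood at a log2 fold change of -0.14 (adjusted p = 0.128), and it was called lower without siCCNL2 replicate 1 (log2 fold change -0.23, adjusted p = 0.0185), whereas without siCCNL2 replicate 2 it was -0.076 (adjusted p = 0.487). Opposite 18.7% of its exon bases lies VRK2, so its counts are uncertain. FANCB (0.033), FANCC (0.12), FANCF (-0.0041) and the translocase gene FANCM (-0.056) overlapped between the groups and were not called on these log2 fold changes.

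The targets of that ligase, FANCD2 and FANCI, had a median log2 fold change of -0.011 and no call, where 33.6% of all tested genes were called. FANCI had 84.2, 76.2 and 77.4 CPM in siCCNL2, against 85.0, 78.8 and 78.4 CPM in siNC. FANCD2 averaged 63.5 ± 3.42 CPM in siCCNL2 and 63.3 ± 3.56 CPM in siNC (SD, n = 3 each). The groups overlapped for both, and their 95% intervals were -0.13 to 0.085 for FANCI and -0.12 to 0.12 for FANCD2. The scaffold gene SLX4 and the nuclease genes MUS81 and EME1, which cut crosslinked or joined DNA, were not called, again against 33.6%. MUS81 had 27.5, 31.1 and 27.3 CPM in siCCNL2, against 26.7, 29.5 and 27.8 CPM in siNC, with a log2 fold change of 0.029 (95% interval -0.13 to 0.19). The counts of MUS81 are uncertain, since 13.9% of its exon bases lie opposite CFL1, which averaged 736 CPM. SLX4 (0.021) and EME1 (0.067) overlapped between the groups as well. EME1 is uncertain too, with 16.4% of its exon bases opposite LRRC59, which averaged 438 CPM and was called higher (log2 fold change 0.17, adjusted p = 0.00168).

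ATR, the kinase that answers to single-stranded DNA at stalled forks, was the largest fall in the list. It was the only call among the 5 signalling genes, which is 20% against 33.6% of all tested genes. It had 127, 117 and 114 CPM in siCCNL2, against 158, 160 and 137 CPM in siNC. Every siCCNL2 library was below every siNC library, and ATR fell by 21.3% (log2 fold change -0.35, 95% interval -0.46 to -0.23, adjusted p = 2.01e-05). Alternatives gave log2 values between -0.41 and -0.31, and the call held in all 16 refits. ATR (ENSG00000175054) spans chromosome 3 from 142449007 to 142578733 (minus strand). A processed pseudogene without reads, AC109992.1, lies opposite 16.4% of its exon bases.

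ATM, the kinase that answers to broken ends, averaged 91.7 ± 7.34 CPM in siCCNL2 and 84.4 ± 5.82 CPM in siNC (SD, n = 3 each). The groups overlapped and the log2 fold change of 0.12 was not called (adjusted p = 0.113), except without siCCNL2 replicate 2 (0.17, adjusted p = 0.0302). Without siCCNL2 replicate 1 it was 0.059 (adjusted p = 0.50) and without siNC replicate 3 it was 0.070 (adjusted p = 0.417). CHEK1, the kinase downstream of ATR, had 51.6, 43.3 and 47.9 CPM in siCCNL2, against 43.5, 40.3 and 43.9 CPM in siNC. Its difference was not called (log2 fold change 0.17, adjusted p = 0.0553), and it was called higher without siCCNL2 replicate 2 (0.23, adjusted p = 0.0108), while without siCCNL2 replicate 1 it was 0.10 (adjusted p = 0.284). For CHEK2, downstream of ATM, the log2 fold change was 0.058 (adjusted p = 0.707). TP53BP1, whose protein protects ends from resection, stood at -0.15 (adjusted p = 0.109), and 28.7% of its exon bases lie opposite TUBGCP4, so its counts are uncertain. Without siCCNL2 replicate 2 its value was -0.089 (adjusted p = 0.409).

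Across the whole list the median log2 fold change was 0.064, against 0.0023 over all tested genes, and 29 of 38 values (76.3%) were above 0, against 50.3% of all tested genes. The median absolute value was 0.12 in the list and 0.19 over all tested genes. The groups did not overlap for 13 members (34.2%, against a background of 43.9%), 11 with siCCNL2 above (28.9%, against 22.1%) and 2 with siCCNL2 below (5.26%, against 21.8%). Genes within the members' range of 5.62 to 136 mean CPM were called in 41.3% of cases, so the members' share of calls was below that of genes counted about as deeply. Of the 31 members not called, 27 had a 95% interval within 1.25-fold in either direction, and the intervals of all 38 stayed within 1.5-fold.

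**Figure D3:**
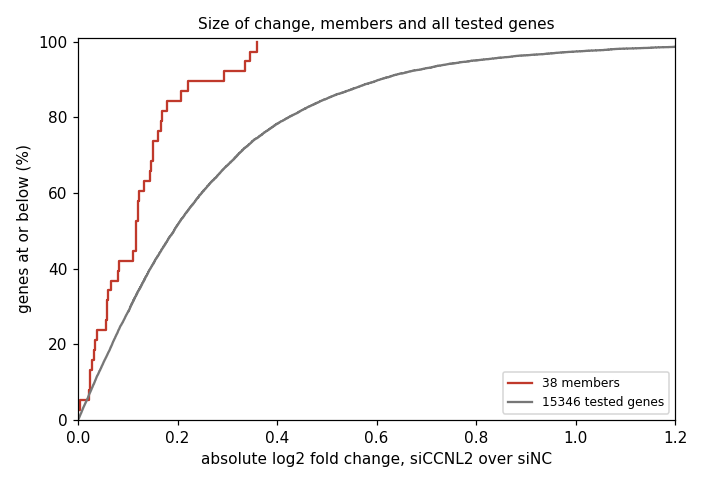
Cumulative share of genes (vertical axis, percent) at or below each absolute log2 fold change (horizontal axis, siCCNL2 over siNC) for the 38 members and the 15346 tested genes. The members' line ends at 0.36, whereas that of all tested genes goes on beyond the axis.

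The pattern over single libraries was mixed. The median over members of the log2 deviation from the siNC mean was 0.098, 0.066 and 0.060 in the siCCNL2 libraries, against 0.015, 0.021 and -0.040 in the siNC libraries. All siCCNL2 medians lay above all siNC medians. The summed CPM of the list were 1583, 1499 and 1501 in siCCNL2, against 1532, 1535 and 1443 in siNC, and on this sum, in which ATR and NBN weigh most, the groups overlapped.

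**Figure D4:**
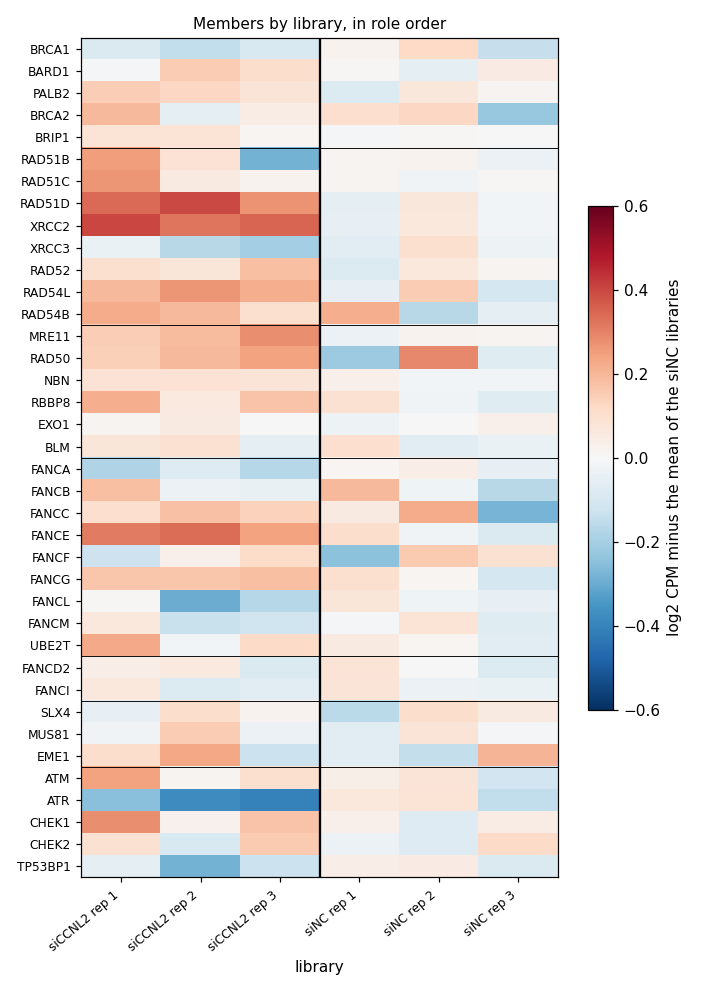
Log2 CPM of each member (rows, in role order) minus its mean over the siNC libraries, by library (columns, siCCNL2 left of siNC). XRCC2 and RAD51D are higher and ATR lower in each of the 3 siCCNL2 libraries, while rows such as RAD51B, RAD50 and FANCC differ as much between libraries of a group.

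On the deposited TPM-like score, which divides by gene length and so allows levels of different genes to be compared, the members spanned from UBE2T to RAD50. UBE2T stood at 74.1 ± 7.99 in siCCNL2 and 69.1 ± 3.35 in siNC (SD, n = 3 each). RAD50 stood at 2.2 ± 0.0744 in siCCNL2 and 1.96 ± 0.372 in siNC, a level that is uncertain because 79.7% of its exon bases are shared with AC116366.3. Between them, the median member had a mean score of 19.2, where the median of all tested genes was 15.9. ATR held rank 5 of the list in siCCNL2 (44.7 ± 3.43) and rank 2 in siNC (57.3 ± 5.36), and its siCCNL2 level lay within the spread of RAD51C (45.0 ± 5.11) and FANCI (43.4 ± 3.28). RAD51D, at 4.69 ± 0.167 in siCCNL2 and 3.74 ± 0.169 in siNC, was below its partner XRCC2, at 21.8 ± 1.1 in siCCNL2 and 17.1 ± 0.718 in siNC. In CPM, without length scaling, the gap was narrower. RAD51D averaged 15.3 CPM and XRCC2 34.0 CPM in siCCNL2, and 12.1 and 26.5 CPM in siNC, so the score gap depends in part on the length used. BRCA1 stood at 23.3 ± 1.06 in siCCNL2 and 25.4 ± 2.43 in siNC, above BRCA2, at 17.1 ± 1.87 in siCCNL2 and 16.6 ± 2.31 in siNC.

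**Figure D5:**
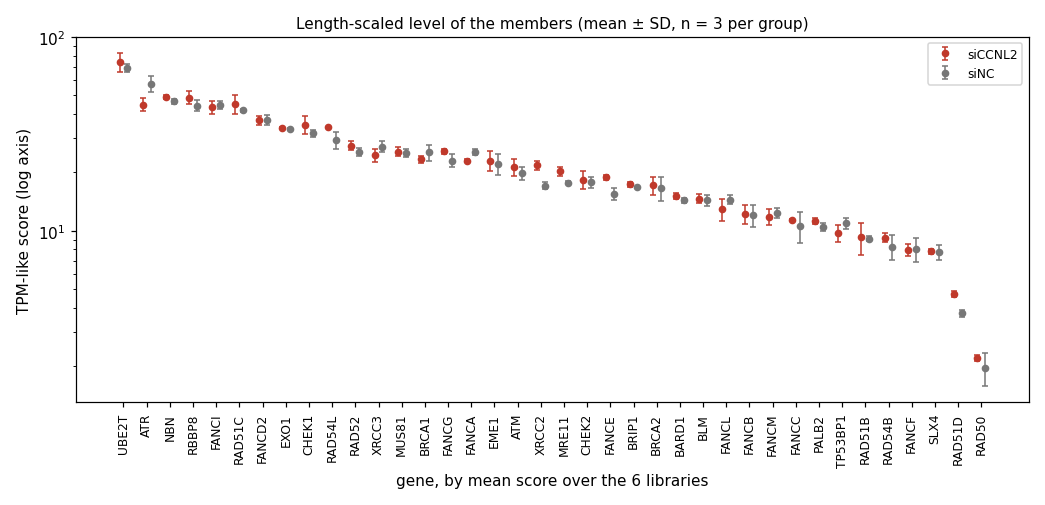
TPM-like score (vertical log axis) of each member (horizontal axis, by mean over the 6 libraries) in siCCNL2 and siNC, mean ± SD (n = 3 per group). Scores fall from about that of UBE2T (74.1 in siCCNL2, 69.1 in siNC) to that of RAD50 (2.2 in siCCNL2, 1.96 in siNC), and ATR shows the widest gap among the highest genes. The level of RAD50 is uncertain, because 79.7% of its exon bases are shared with AC116366.3.

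Positions and promoters were compared as properties that the choice of symbols did not use. Of 35 members with a RefSeq promoter window, 12 (34.3%) start within 1000 bases of a protein-coding gene that runs the other way, against 16.3% of 10048 tested protein-coding genes. Among called members this held for MRE11, whose neighbour ANKRD49 starts 140 bases away and was not called (log2 fold change 0.12, adjusted p = 0.53). The partner was tested in 10 of the 12 pairs, and its log2 fold change had the sign of the member in 4 and the opposite sign in 6. The signs of FANCB, SLX4 and EME1 turned when some single libraries were left out, so this tally includes members without a settled sign. Of the 10 tested partners 4 were called, against 33.6% of all tested genes. Among these 4, MOSPD2, 352 bases from FANCB, had the same sign as the member in the reported fit (0.28, adjusted p = 0.0153). The other called partners had the opposite sign, namely NPAT beside ATM (-0.25, adjusted p = 0.00983), NBR1 beside BRCA1 (0.12, adjusted p = 0.0159) and MAP1A beside TP53BP1 (0.53, adjusted p = 6.96e-05), while none of these 4 members was called.

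Motifs were searched on both strands of the same windows. An E2F motif, spelled TTTCCCGC, TTTCGCGC, TTTGCCGC or TTTGGCGC, occurred in 5 of the 35 members (14.3%), against 6.55% of tested genes with a window and 3.31% of all 35116 windows. These 5 were XRCC2, EXO1, FANCA, FANCC and FANCD2, whose log2 fold changes ran from -0.15 for FANCA to 0.36 for XRCC2, and of the 5 only XRCC2 was called. The CHR element TTTGAA occurred in 11.4% of members and 14% of tested genes (15.2% of all windows), CCAAT in 45.7% and 42.9% (34.6% of all windows), and GGGCGG in 74.3% and 76% (45% of all windows). Over the span of the gene on the chromosome, the 19 shorter members had a median log2 fold change of 0.067 and the 19 longer ones of 0.060.

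Other genes of the pathway were called in each direction at about the share of all tested genes. Of 36 further recombination and Fanconi anemia partners, 32 were tested, 5 were called higher and 5 lower, with a median log2 fold change of 0.019. For this list and those of damage signalling and end joining, the background is 17.2% of all tested genes called higher and 16.5% lower. SFR1, a cofactor of recombination, rose (log2 fold change 0.46, adjusted p = 7.07e-04), as did CENPX, which binds FANCM (0.33, adjusted p = 1.13e-04). FAAP100, a subunit of the core complex, fell (-0.44, adjusted p = 3.17e-05), as did ERCC1, a partner in the nuclease that unhooks crosslinks (-0.28, adjusted p = 2.24e-04).

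Of 23 genes of damage signalling, 5 were called higher, with SHLD2 of the shieldin complex at 0.30 (adjusted p = 4.38e-04), and 2 lower, with the ubiquitin ligase gene RNF168 at -0.24 (adjusted p = 3.92e-04). Of 10 end joining genes 3 were called higher, among them XRCC4 (0.36, adjusted p = 0.00543), and 2 lower, with its partner LIG4 at -0.36 (adjusted p = 4.01e-05). Median log2 fold changes were 0.062 for damage signalling and 0.030 for end joining.

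Many recombination genes are transcribed most in S phase, so markers of S and G2 phases are given beside them. Over all tested genes, 17.2% were called higher and 16.5% lower, and genes within the members' CPM range (5.62 to 136) were called in 41.3% of cases. Several of the markers were counted more deeply than that range, such as CDC6 (230 CPM in siCCNL2, 184 CPM in siNC) and MKI67 (732 CPM in siCCNL2, 648 CPM in siNC). The 41.3% is therefore not a background matched in depth for these lists. Of 16 G1/S markers 8 were called higher and none lower, with a median log2 fold change of 0.12, a summed level of 2522 to 2604 CPM in siCCNL2 and of 2328 to 2415 CPM in siNC. Of 12 G2/M markers 6 were called higher and none lower (median 0.095), with summed levels of 3491 to 3567 CPM in siCCNL2 and 3166 to 3350 CPM in siNC. Among 16 regulators of S phase transcription 7 were called higher, led by TFDP1 (0.43, adjusted p = 2.28e-09) and E2F1 (0.38, adjusted p = 1.91e-05), and 2 lower, E2F5 (-0.63, adjusted p = 8.69e-06) and E2F7 (-0.12, adjusted p = 0.0223). The E2F7 call was lost without any one of the siCCNL2 replicates or siNC replicates 1 and 3 (adjusted p 0.0525 to 0.13). No marker of these phase lists was at 0 in either group. The part of the phase markers in the differences of XRCC2, RAD51D, RAD54L, MRE11, FANCE, FANCG and ATR was not tested.

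Among 5 tested transcription kinases and cyclins 1 was called higher and 1 lower, against 17.2% and 16.5% of all tested genes. CDK12, whose loss in other cells is known to lower long recombination genes, rose (160 ± 1.9 CPM in siCCNL2 and 137 ± 5.71 CPM in siNC, SD, n = 3 each; log2 fold change 0.23, adjusted p = 1.52e-04). CCNL1, the relative of CCNL2, fell (-0.18, adjusted p = 0.0028). The cyclin of CDK12, CCNK (-0.088, adjusted p = 0.431) and CDK11B, a partner of cyclin L2 (0.10, adjusted p = 0.168), were not called.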

How the data were processed

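Total RNA of 6 HEY libraries was sequenced, 3 siCCNL2 and 3 siNC, grouped by title. Tools listed in the submitters' processing notes, without role or order, are HTSeq 2.0.1, HISAT2 and fastp 0.23.0, on GRCh38; no annotation release or strand setting was found in them. The deposited table of whole-number counts per gene was used once per name (62710 rows, 60835 names). The second deposited table, a TPM-like score, sums to 1000000 per library over distinct names and more over all rows.

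Counts were filtered with filterByExpr (15346 genes kept), scaled by TMM and tested with edgeR 4.0.16 in R 4.3.3 (quasi-likelihood test, no covariates, Benjamini-Hochberg adjustment over all tested genes, called under 0.05). Fold changes are siCCNL2 over siNC, and intervals are 95% from the moderated t distribution; they cover counting error and the spread of these libraries. No exact permutation p over 3 against 3 libraries can fall below 0.1. The fit was tested on simulated counts. Alternatives used DESeq2 1.42.0, limma 3.58.1, other scalings, filters and thresholds, a replicate block and omission of each library. Exon overlaps are from GENCODE release 29 and promoters from RefSeq (35 of 38 members matched by symbol). Every member is named, with values per library for each called member and the highest-scoring member of each role (and for BRCA2 and CHEK1, chosen after their values were seen); further lists name up to 3 called genes per direction with at least 5 CPM. Members and lists were chosen with earlier results of these data known. A result on 1 further gene is not reported here.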

Additional observations from a re-analysis of the deposited data

How the results depend on the processing

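Over 18 alternatives the direction and call of CCNL2, and the direction of all 7 called members, did not change. Replicate numbers did not pair the libraries (correlations of deviations 0.0412, 0.0231 and 0.0315 for numbers 1 to 3), and with the replicate block 7 members were called higher and 1 lower, CHEK1 being added. The median over members stayed between 0.046 and 0.085 on the log2 scale. Against a fold of 1.2, 1435 genes were called (747 higher, 688 lower) instead of 5159 (2634 and 2525), and 0 members in either direction. Members called higher, 6 in the reported fit, were 3 by the DESeq2 Wald test, 2 on the log2 score with 1 or 0.1 added, 1 at an adjusted p under 0.01, and 3 to 6 on leaving out 1 library. Members called lower, 1 in the reported fit, were 2 with upper-quartile factors or no composition factor (FANCA added) and 1 to 3 on leaving out 1 library. Signs turned only for members that were not called in any such fit. On leaving out 1 library, log2 fold changes ran from -0.042 to 0.12 for BRCA2, -0.092 to 0.18 for RAD51B, -0.046 to 0.14 for FANCB, -0.0014 to 0.24 for FANCC, -0.12 to 0.076 for FANCF, -0.035 to 0.049 for FANCD2, -0.070 to 0.016 for FANCI, -0.055 to 0.076 for SLX4, -0.026 to 0.069 for MUS81 and -0.0056 to 0.18 for EME1. FANCF was also 0.0021 by limma-voom and 0.0047 with the replicate block. FANCD2 was -0.0067 and -0.0065 on the log2 score with 0.1 and with 1 added, -0.0020 without a composition factor, -0.00080 without a count filter and -0.015 with upper-quartile factors. The cause of these changes was not tested. Low read counts limit RAD50, RAD51B, RAD54B and FANCF most, the members with the fewest reads.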
